A study of Mus musculus with 5 samples.

Results

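Natural killer (NK) cells were examined in single-cell RNA sequencing of mouse lung, as 353 of the 12707 filtered cells in 4 unsorted libraries, and of 13200 filtered cells in all 5 libraries of the study. They were chosen by measured transcripts: a cell was kept when 701 to 7999 genes were detected and under 5% of its counts were mitochondrial, when at least 2 of the 6 genes Klre1, Klrb1c, Klra8, Klra4, Gzma and Prf1 were detected, and when Cd3d, Cd3e, Cd3g and Cd79a were all at 0. The exclusions were aimed at T cells, which carry the CD3 chains, and B cells, which carry CD79A. Expression of these 10 genes within the cells follows from the rule and is given below as a description only.

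C57BL/6J mice younger than 12 h were placed in more than 95% oxygen (hyperoxia) for 3 days and then returned to room air, or were kept in room air throughout, and the nursing dams were exchanged every 24 h. Lungs were taken at postnatal day 7 (pnd7) and at pnd60, and each of the 4 combinations of exposure and age gave 1 unsorted library. The sorted library, from hyperoxia-exposed pups at pnd7, was pooled from 3 mice and enriched for C12FDG, a fluorescent substrate of the senescence-associated β-galactosidase. It held 493 filtered cells and no NK cell, and a count of 0 allows up to 3 cells, a share of 0.609%. How many mice contributed to each unsorted library, and of which sex, is not given in the sources used here. With 1 library per condition, differences between exposures could not be tested against variation between mice, and every interval given here is a 95% interval that covers counting error only. UMIs (unique molecular identifiers) were counted, and levels are given as CPM, each count scaled to a total of 1000000 in the cells named.

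NK cells are lymphocytes that kill infected or transformed cells without an antigen receptor of their own, by releasing granules that hold perforin and granzymes. Whether they fire is set by paired activating and inhibitory receptors, many of which, such as the Ly49 (Klra) and NKG2 (Klrc, Klrk) families, read MHC class I molecules or their relatives on the target cell. In the mouse, individual NK cells carry different combinations of Ly49 receptors, which are gained as the cells mature after birth, and the adult lung holds a large circulating population of these cells.

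Start-site sequences of the genes the results turn on most are shown first, because RUNX and T-box factors are known regulators of the NK programme. Each window runs from 250 bases before to 50 bases after a RefSeq start site (GRCm38.p6) and is written 5′ to 3′ on the strand of the gene. Capitals mark the letters TGTGGT or their reverse complement ACCACA, searched as a RUNX motif, and GGTGTGA or TCACACC, searched as a T-box motif.
Gzma, chr13:113100932-113101231, minus strand: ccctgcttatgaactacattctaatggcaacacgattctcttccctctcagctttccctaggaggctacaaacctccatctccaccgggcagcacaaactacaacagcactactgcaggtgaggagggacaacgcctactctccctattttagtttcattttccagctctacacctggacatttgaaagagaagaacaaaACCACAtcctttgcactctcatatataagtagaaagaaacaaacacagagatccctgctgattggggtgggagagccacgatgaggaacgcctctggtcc
Prf1, chr10:61297586-61297885, plus strand: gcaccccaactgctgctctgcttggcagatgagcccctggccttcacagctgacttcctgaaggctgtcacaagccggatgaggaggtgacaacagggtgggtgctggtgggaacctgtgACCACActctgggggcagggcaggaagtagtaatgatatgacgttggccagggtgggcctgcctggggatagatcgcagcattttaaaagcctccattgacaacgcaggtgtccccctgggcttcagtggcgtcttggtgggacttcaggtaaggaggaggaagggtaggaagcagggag
Ncr1, chr7:4337465-4337764, plus strand: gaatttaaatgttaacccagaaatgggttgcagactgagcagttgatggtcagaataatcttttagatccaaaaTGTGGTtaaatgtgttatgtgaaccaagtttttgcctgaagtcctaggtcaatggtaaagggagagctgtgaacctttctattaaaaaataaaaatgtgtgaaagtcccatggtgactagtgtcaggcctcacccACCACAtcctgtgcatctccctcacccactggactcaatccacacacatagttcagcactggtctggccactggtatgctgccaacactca
Nkg7, chr7:43436888-43437187, plus strand: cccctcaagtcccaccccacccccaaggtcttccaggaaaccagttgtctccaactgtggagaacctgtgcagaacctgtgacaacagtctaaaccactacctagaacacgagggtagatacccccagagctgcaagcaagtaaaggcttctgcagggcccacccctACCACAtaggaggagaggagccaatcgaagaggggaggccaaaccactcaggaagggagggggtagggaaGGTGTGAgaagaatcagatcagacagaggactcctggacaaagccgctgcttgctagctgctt

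The RUNX letters lay at -50 in the Gzma window and at -130 in the Prf1 window, counted from the first base of the transcript. The Ncr1 window held them at -176 and at -41, and the Nkg7 window held them at -83 together with the T-box letters at -13. Among the 10 genes looked up that had a window (the 6 genes of the rule, Nkg7, Ncr1, Eomes and Tbx21), 6 had the RUNX letters in at least 1 window. Klra8, Klra4, Eomes and Tbx21 had none, and all windows printed above carry them. By window these were 7 of 13, against 16.8% of all 32851 windows. Ncr1 counts with 2 overlapping windows that hold the same letters. The T-box letters were in 1 of the 13, against 3.98% of all windows, and the ETS letters CCGGAAG or CTTCCGG were in 0 of the 13, against 8.86%. These are matches of letters and do not show binding.

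By the rule, NK cells were rare at pnd7 and a regular population at pnd60. They numbered 4 of 2308 filtered cells in air at pnd7, a share of 0.173% (0.0472 to 0.443%, exact Clopper-Pearson interval), and 1 of 1246 in hyperoxia at pnd7, a share of 0.0803% (0.00203 to 0.446%). At pnd60 they numbered 175 of 4397 filtered cells in air, a share of 3.98% (3.42 to 4.60%). Hyperoxia at pnd60 gave 173 of 4756, a share of 3.64% (3.12 to 4.21%), so the intervals of the exposures overlapped at both ages, while those of the ages did not. Among cells with the pan-leukocyte gene Ptprc, NK cells made up 7.09% in air and 6.37% in hyperoxia at pnd60, and 0.291% and 0.294% at pnd7. Between the same ages T cells, defined by any CD3 chain, were 12.9% of filtered cells in air at pnd7 and 13.1% at pnd60, and in hyperoxia 9.39% and 13.2%. B cells were 8.62% and 29.0% in air and 6.18% and 28.4% in hyperoxia. Age and library cannot be told apart here, and neither can fewer NK cells and a different yield of the cell suspensions.

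**Figure D1:**
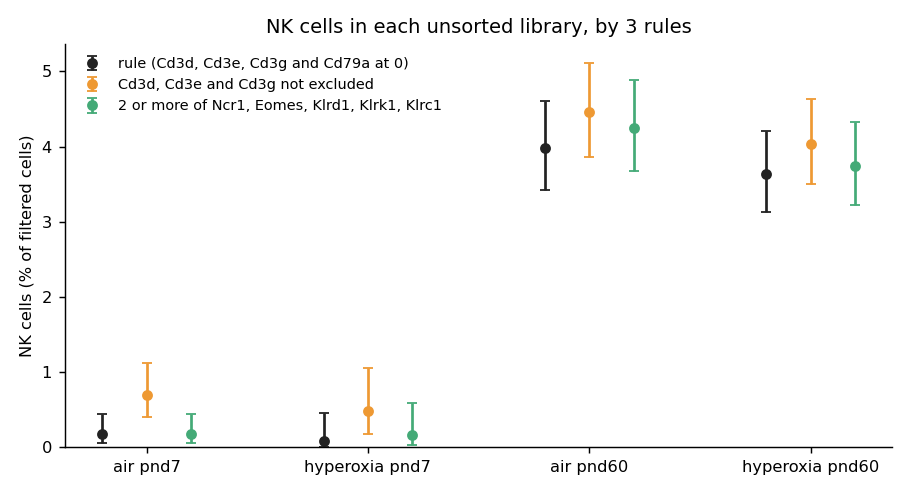
NK cells as a percentage of filtered cells (y axis) in the 4 unsorted libraries (x axis), by the rule, by the same rule without the exclusion of CD3 chains, and by a rule on 5 other markers; points are shares and bars are 95% Clopper-Pearson intervals. All 3 rules gave under 1% at pnd7 and between 3.6 and 4.5% at pnd60.

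The exclusion of CD3 chains bore mainly on pnd7. Without it, 16 cells in air (0.693%) and 6 in hyperoxia (0.482%) qualified at pnd7, against 196 (4.46%) and 192 (4.04%) at pnd60. Of the 22 cells at pnd7, 17 had a CD3 transcript, compared with 40 of the 388 at pnd60. Ncr1, which encodes the activating receptor NKp46, was detected in 11 of those 17 cells and in 10 of those 40, and Cd8a, a co-receptor of T cells, in 3 and in 17. Of the 11 cells at pnd7 with a CD3 chain and Ncr1, 8 had no count of Cd3e and 10 had none of Cd5, Cd8a and Cd4. At pnd60 this held for 4 and for 5 of the 10. This comparison of CD3-positive cells was chosen after their values were seen, and depth differs, since the median of filtered cells was 2168 counts in air and 2315.5 in hyperoxia at pnd60 against 3915 and 7119.5 at pnd7. A rule on Ncr1, Eomes, Klrd1, Klrk1 and Klrc1 (at least 2 detected, the same exclusions) kept 4, 2, 187 and 178 cells in the 4 libraries in the order above, of which 2, 1, 167 and 165 were also members.

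The 5 cells that met the rule at pnd7 were too few for any further comparison and were mixed in content. Ncr1, Klrd1 and Nkg7 were each detected in 2 of the 4 air cells. One of the air cells held 9299 counts with 14 of Gzma, 10 of Klrd1 and 3 of Ncr1, and another held 3794 counts with 9 of Nkg7 and 6 of Ncr1. A further air cell, with 2686 counts, had 5 of Gzma and 250 of the hemoglobin gene Hbb-bs and none of Ncr1, Klrd1 or Nkg7. The remaining air cell had 43676 counts, of which 62 were Kdr and 35 were Cdh5, both endothelial genes, beside 1 count each of Klrb1c and Prf1. It had none of Ncr1, Klrd1 or Nkg7, so the share in air at pnd7 includes cells without these markers. The hyperoxia cell had no count of Prf1, Eomes, Klra4 or Klra8 and had 166 counts of Gzma, 24 of Nkg7, 11 of Klrd1 and 8 of Ncr1 among 6670.

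Levels were also summed over all filtered cells of a library. The members held most counts of these genes at pnd60, and Klre1, Gzma, Klra4 and Klra8 belong to the rule, so the sums are a description and no independent support for the difference in cell numbers. Klre1, an inhibitory and activating receptor subunit, was at 1.62 CPM in air and 3.39 CPM in hyperoxia at pnd7 and at 31.2 and 31.0 CPM at pnd60. Ncr1 was at 3.48 and 2.87 CPM at pnd7 and at 15.6 and 15.2 CPM at pnd60. Gzma, the granule protease granzyme A, was at 28.3 and 56.4 CPM at pnd7 and at 212 and 192 CPM at pnd60. For these genes the younger libraries lay below the older. Members held 84.8% of the Klre1 counts and 96.1% of the Ncr1 counts of the air library at pnd60. At pnd7 they held 3.70% of the Klre1 and 15.5% of the Ncr1 counts in air. In hyperoxia at pnd7 these were 19.6% and 20.5%, so most of these transcripts at pnd7 lay outside the members. Transcripts of Klra4 and Klra8, which encode Ly49D and Ly49H, came at pnd7 from 1 air cell with a CD3 chain (18 and 17 counts), and hyperoxia had 0 counts of both, which allows up to 3 counts, or 0.221 CPM, in the library. At pnd60 Klra4 was at 22.0 and 22.6 CPM and Klra8 at 22.4 and 23.9 CPM, each with air first.

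The NK label was checked with markers that the rule did not use. To compare cells of unlike depth, cells were thinned to 1000 counts. NK cells had median depths of 1901 counts in air and 2020 in hyperoxia, CD8 T cells 2610.5 and 2631, and B cells 1632 and 1736.5. Nkg7, a protein of cytotoxic granules, was detected in 87.4% of NK cells in air and 83.6% in hyperoxia, and in 27.3% and 29.6% of CD8 T cells. It was in 0% and 0.67% of B cells, which lack cytotoxic granules and serve as background. Ncr1 was detected in 42.3% and 41.5% of NK cells, in 0.84% and 0.39% of CD8 T cells and in 0% and 0.15% of B cells. Eomes, a T-box factor of the NK lineage, was detected in 46.9% and 45.0% of NK cells and in 4.20% and 3.89% of CD8 T cells. Ccl5, a chemokine, was in 98.9% and 98.2% of NK cells and in 17.2% and 14.0% of CD8 T cells. Tyrobp (DAP12) and Fcer1g, adaptors through which activating receptors signal, were in 76.0% and 86.3% of NK cells in air and in 82.5% and 83.6% in hyperoxia. Klrd1 (CD94) was in 61.1% and 63.2% of NK cells and in 20.6% and 25.7% of CD8 T cells. Ncr1 and Eomes were thus in few CD8 T cells, while Nkg7, Klrd1 and Ccl5 were shared with a part of them. Before thinning, Tyrobp was found in 6.19% and 7.32% of B cells, the background for that gene.

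**Figure D2:**
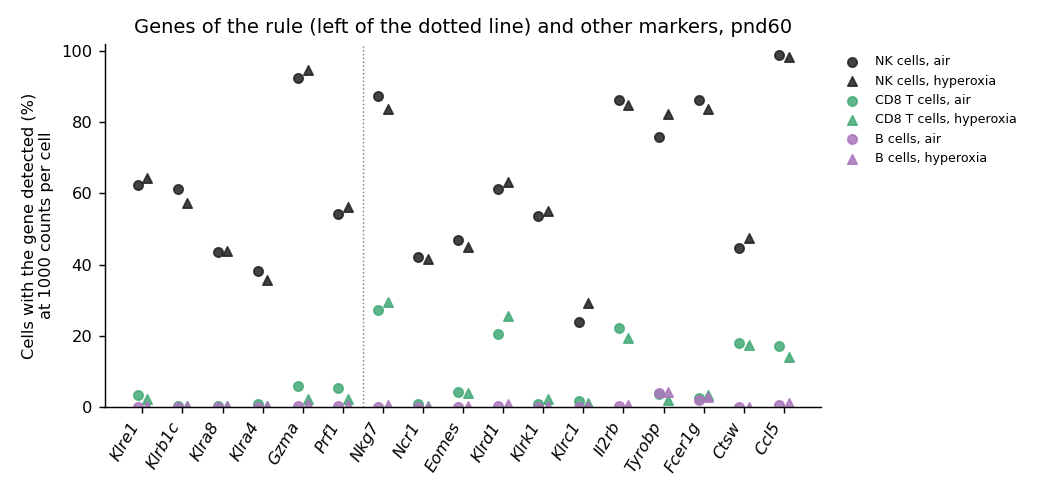
Percentage of cells with each gene detected after thinning to 1000 counts per cell (y axis) for the 6 genes of the rule, left of the dotted line, and 11 other NK markers (x axis), in NK cells, CD8 T cells and B cells at pnd60; circles are the air library and triangles the hyperoxia library. Circles and triangles of NK cells lie close together, with Nkg7 at 87.4 and 83.6% and Ncr1 at 42.3 and 41.5%.

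Defining markers of neighbouring lymphocytes were at or near 0 in the 348 NK cells at pnd60, though genes that NK cells share with them were not. Cd8a, Cd8b1 and Cd5 had no counts, Cd4 had 0 in air and 1 in hyperoxia, and Cd6 had 0 and 1. Bcl11b had 17 counts in 10 air cells and 8 in 8 hyperoxia cells. Over its 18 genes the T cell list had 53 counts in air and 38 in hyperoxia. Lef1 was its most counted gene, with 62 counts over both libraries. Without members that held at least 20 counts of markers of another cell type, the T cell list had 53 and 33 counts. In that setting 1 gene of the T cell list was compared, at -0.54. Cxcr6, a marker of group 1 innate lymphoid cells, had no counts, Itga1 had 2 and 3, and Il7r had 3 and 10, while Il1rl1, Il13, Il5 and Areg of group 2 innate lymphoid cells had none. Over its 11 genes in the tables the group 1 list had 152 counts in air and 137 in hyperoxia, of which Rgs1 had 69 and 61 and Cd69 36 and 26. The group 2 list, also of 11, had 96 and 117, of which Gata3 had 65 and 88. The annotation holds some genes, T cell receptor constant regions among them, under a further copy, and a count of 0 for such a gene was not read as a lack of expression. Xist, expressed from the inactive X chromosome of females, had 264 counts in air and 268 in hyperoxia, and Y-linked Ddx3y had 29 and 33, so cells of both sexes entered both libraries.

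The number of genes of the rule per cell depends on the genes that chose the cells and is given as a description. In air 12, 19, 61, 56 and 27 NK cells had 2, 3, 4, 5 and 6 of the genes, and in hyperoxia 2, 30, 52, 63 and 26 had them. Cells with 2 genes were thus 6.86% of members in air and 1.16% in hyperoxia. Cells just outside the rule, with 1 gene, numbered 30 in air and 27 in hyperoxia at pnd60. Their Nkg7 level was 13.1 and 95.1 CPM, and that of the cells just inside, with 2 genes, was 1143 and 4824 CPM. For Ncr1 the levels outside were 13.1 and 11.9 CPM, and those inside were 457 and 742 CPM. Sftpc of alveolar type II cells was at 29495 CPM outside and 28772 CPM inside in air. The air value inside came from 1133 counts in 5 of the 12 cells. In hyperoxia the levels were 42434 and 742 CPM, the last from 2 counts in 2 cells. At pnd7 in air 42 cells had 1 gene, of which 36 had only Gzma. Each unsorted pair of libraries shared 5 to 7 cell barcodes, the sorted library shared none, and no shared barcode was an NK cell in both. Scrublet, a doublet caller, marked 7 NK cells in air and 5 in hyperoxia at pnd60, which were retained.

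The levels of the genes that chose the cells are a description, since a cell had to carry 2 of them to be counted. At pnd60 Gzma had 2665 counts in air and 2746 in hyperoxia, a log2 ratio of hyperoxia over air of 0.09 (0.02 to 0.17). Prf1, the pore-forming perforin, had 360 and 352, a ratio of 0.02 (-0.20 to 0.23). Klrb1c, which encodes NK1.1, had 341 and 360 counts (0.13, -0.09 to 0.35), and Klre1 had 390 and 428 (0.18, -0.02 to 0.39). In cells of the air library, Gzma ranged from 0 to 59 counts with a median of 14, and in hyperoxia from 0 to 50 with a median of 14. B cells, as background, had Gzma in 0.548% in air and 0.814% in hyperoxia. In air these were 25 counts in 7 of 1277 B cells, with up to 13 in 1 cell. In hyperoxia they were 183 counts in 11 of 1352, with up to 40 in 1 cell. The source of these counts was not tested.

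Ly49 receptors were distributed over the cells in combinations. In air 51 NK cells had both Klra4 and Klra8, 31 had only Klra4, 39 had only Klra8 and 54 had neither. In hyperoxia the numbers were 48, 27, 50 and 48. Of the 6 genes Klra1, Klra3, Klra4, Klra7, Klra8 and Klra9, no gene was detected in 13 air and 16 hyperoxia cells, exactly 2 in 59 and 55, exactly 3 in 45 and 56, and 5 in 6 and 4. Klra4 and Klra8 are genes of the rule, so these numbers describe the cells chosen and nothing is read from them, and at a median of 1901 and 2020 counts per cell a receptor that is expressed can be missed. The median depth of cells without Klra4 and Klra8 was 1973 counts in air and 2080.5 in hyperoxia, and of cells with both 1961 and 1900.

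The remaining Ly49 genes are mostly inhibitory receptors for MHC class I. Klra9 (Ly49I) had 232 counts in air and 300 in hyperoxia, a log2 ratio of 0.42 (0.17 to 0.67). Klra7 (Ly49G) had 168 and 125 (-0.38, -0.72 to -0.03), or -0.32 (-0.68 to 0.04) without members that held at least 20 counts of markers of another cell type, and together with a further copy of the gene in the annotation, at 147 and 128, the ratio was -0.27 (-0.51 to -0.02). Further copies of Klra4, Klra8, Klra1 and Klra3 had 0 counts. Klra3 (Ly49C) had 106 and 128 counts and Klra1 (Ly49A) 33 and 41. None was past the 2-fold limit. This family consists of close relatives, and reads can be split between them. In the last 500 bases of the transcripts, 11.2% of 100-base stretches of Klra9, 5.74% of Klra7 and 5.49% of Klra3 occurred in another Klra transcript, and none of Klra4, Klra8 or Klra1 did.

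Across all genes, NK cells of the exposures differed little at pnd60. The summed counts were 400699 in air and 387204 in hyperoxia, and 3313 genes had at least 50 counts over both libraries. Their median log2 ratio was 0.00, and 2825 of them (85.3%) lay within 0.5 of 0. A log2 ratio of at least 1 was seen for 30 genes, 0.906% of those compared, and of at most -1 for 21 genes, 0.634%. In 9 of the 30 and 6 of the 21, more than 50% of the counts in the library with the higher level came from 1 cell.

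The top of this ranking was held largely by genes best known from other cell types. Hbb-bs, a beta globin, had 20 counts in air and 1312 in hyperoxia (log2 ratio 6.09, 5.45 to 6.80), of which 880 were in 1 cell. The other globins Hba-a2 (5.66), Hba-a1 (5.52) and Hbb-bt (4.83) followed, and Vwf, an endothelial gene, had 43 of its 47 hyperoxia counts in 1 cell (4.02). Plac8 (2.20) had 34 of 49, Thbd (1.89) had 25 of 50 and Apoe (1.73) had 89 of 125 in a single cell. At the bottom, Chil3, of alveolar macrophages, had 51 counts in air, 49 of them in 1 cell, and 3 in hyperoxia (-4.04, -6.36 to -2.41). Lpl (-3.49) had 56 of its 58 air counts in 1 cell, and Sec14l3 (-1.69), Lpcat1 (-1.56), Chil1 (-1.27), Scd1 (-1.27) and Alcam (-1.20) had from 20 to 97 in their largest cell.

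Most red blood cell counts of hyperoxia and most epithelial counts of both libraries lay in a few barcodes. The 6 red blood cell markers had 56 counts in NK cells of air and 2859 in hyperoxia, of which 1970 and 870 were in the 2 largest cells. The 11 epithelial markers had 2615 and 1518, with 1337 and 905 in the 2 largest air cells and 1146 in the largest hyperoxia cell. Sftpc, of alveolar type II cells, was the most abundant, with 1988 and 1098 counts. Endothelial markers had 175 and 252 counts, mesenchymal markers 213 and 240, and macrophage and monocyte markers, without the genes NK cells also express, 148 and 93. Leaving out the cells with at least 20 counts of a list left 56 and 19 counts of red blood cell markers and 336 and 347 of epithelial markers. Of mesenchymal markers 187 and 190 were left, and of endothelial markers 128 and 96, so the endothelial counts of hyperoxia were concentrated in few cells and the mesenchymal counts of both libraries were not. When the 6 air and 10 hyperoxia cells with at least 20 counts of any of these lists were left out, 2939 genes were compared and 11 were higher and 11 lower. Of these, 8 were among the 30 and 5 among the 21, and the red blood cell list went from 5.72 to -1.42 on the log2 scale of summed counts.

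**Figure D3:**
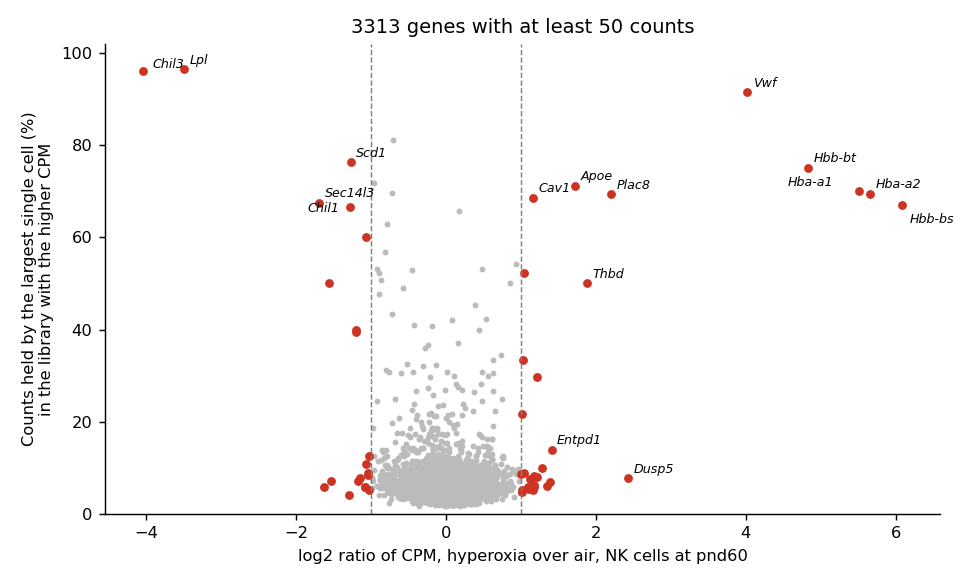
Log2 ratio of CPM in NK cells at pnd60, hyperoxia over air (x axis), against the percentage of a gene's counts held by its largest single cell in the library with the higher CPM (y axis), for 3313 genes; red points lie past the 2-fold limits drawn as dashed lines. The globins, Vwf, Chil3 and Lpl sit at 67% or more, whereas Dusp5 sits at 7.69%.

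The other genes past the limit, 21 higher and 15 lower, did not have more than 50% of their counts in 1 cell, and many lay near the minimum of 50 counts. Dusp5, a nuclear phosphatase that inactivates ERK, had 10 counts in 10 air cells (25 CPM, 12.0 to 45.9) and 52 counts in 40 hyperoxia cells (134 CPM, 100.3 to 176). Its log2 ratio was 2.43 (1.44 to 3.57), and it was 2.36 without the cells that carried other markers. It was detected in 5.71% of air and 23.1% of hyperoxia NK cells, against 0.548% and 2.44% of B cells, whose own ratio was 2.16 (0.97 to 3.57). The ratio in CD8 T cells was 0.56 (-0.85 to 2.06). The gene was thus higher in both NK and B cells of the hyperoxia library, and whether the library as a whole played a part was not tested.

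Entpd1 (CD39), an ectonucleotidase, had 14 counts in 10 air cells and 36 in 25 hyperoxia cells (1.41, 0.49 to 2.42). H2-Q4, an MHC class I gene with close relatives in the same locus, had 45 counts in 41 cells and 94 in 68 (1.11, 0.58 to 1.66), beside 0.59 in CD8 T cells and 0.22 in B cells. With its further copies in the annotation, at 3 counts in each library, the ratio was 1.06 (0.55 to 1.59). Ftl1, the ferritin light chain, had 44 and 93 counts (1.13) and was also 0.82 higher on the log2 scale in CD8 T cells and 1.05 in B cells. The small nuclear RNA Rn7sk had 68 and 168 (1.35), beside 1.21 in CD8 T cells and 0.38 in B cells. Of the genes lower in hyperoxia, Snx27, a sorting nexin of endosomes, had 51 counts in 42 air cells and 16 in 15 hyperoxia cells (-1.62, -2.53 to -0.79). Sephs2, of selenocysteine synthesis, had 42 counts in 37 cells and 14 in 14 (-1.54, -2.52 to -0.63), and Ppp1ccb had 48 in 44 cells and 19 in 17 (-1.29). Snx27 and Ppp1ccb were at -0.09 and -0.07 in CD8 T cells, where Sephs2 was at -0.95, and in B cells Sephs2 was at 0.43.

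Genes of NK function were then compared by role. Of the cytotoxic granule genes, 0 of 12 were past the limit in either direction, with a median log2 ratio of 0.09 and 9 above 0, beside 0.00 for all genes and 0.906% and 0.634% of all genes past the limit upwards and downwards. At these shares a list of this size with 0 past the limit is no result about the list, which holds for each list with 0 below. Without Gzma and Prf1, which belong to the rule, 0 of 10 were past it and the median was 0.14. Gzmb, granzyme B, had 379 counts in air and 324 in hyperoxia (-0.18, -0.40 to 0.04), Nkg7 had 786 and 884 (0.22, 0.08 to 0.36), and Ctsw, cathepsin W, had 230 and 261 (0.23, -0.03 to 0.49). Fasl, the death ligand, stood above the others with 51 counts in 43 cells and 80 in 60 (0.70, 0.17 to 1.23).

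Among activating receptors 0 of 11 and among inhibitory receptors 0 of 9 were past the limit, with medians of 0.14 and 0.18. Without the genes of the rule these were 0 of 8 each, with medians of 0.11 and 0.24. Ncr1 had 221 and 223 counts (0.06, -0.21 to 0.34), and Klrk1, which encodes NKG2D, had 299 and 305 (0.08). Klrd1 had 390 and 422 (0.16) and its partner Klrc1, NKG2A, had 137 and 138 (0.06). Below the receptors, 0 of 15 adaptors and kinases were past the limit, with a median of 0.12. Tyrobp had the narrowest interval away from 0 in this list, with 586 and 760 counts (0.42, 0.27 to 0.58), while Fcer1g had 766 and 779 (0.07, -0.07 to 0.22) and Hcst, the adaptor of NKG2D, 215 and 212 (0.03).

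Secreted factors had a median ratio above 0, with none past the limit. Of 8 cytokines and chemokines, 0 were past it, 7 were above 0 and 5 had intervals above 0, with a median of 0.35. Over all genes 4.29% had intervals above 0 and 4.83% below. Ccl5 had 3432 counts in air and 3945 in hyperoxia (0.25, 0.18 to 0.32) and Ccl4 577 and 673 (0.27, 0.11 to 0.43), although 132 of the air counts of Ccl4 were in 1 cell. Ccl3 had 162 and 203 (0.37, 0.07 to 0.68), and Xcl1, which attracts cross-presenting dendritic cells, 83 and 117 (0.54, 0.13 to 0.97). Tgfb1 had 48 and 74 (0.67, 0.13 to 1.23). Without the cells that carried other markers, Xcl1 was at 0.24 (-0.20 to 0.69), Tgfb1 at 0.47 (-0.11 to 1.06) and Ccl4 at 0.16 (-0.01 to 0.33), so that these 3 intervals spanned 0. Ccl5 was then at 0.26 (0.19 to 0.32) and Ccl3 at 0.47 (0.16 to 0.79). Ifng, the interferon of NK and T cells, had 59 and 76 (0.41, -0.10 to 0.93). Tnf, Lta, Ltb and Il2, also held under further copies, were at 0 and were not read.

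Transcription factors were divided evenly, with 0 of 14 past the limit (0.906% and 0.634% of all genes), 7 above and 7 below 0 and a median of -0.01. Bhlhe40, a repressor linked to cytokine production in lymphocytes, came nearest, with 104 counts in 68 air cells (38.9% of cells) and 188 counts in 102 hyperoxia cells (59.0%), a ratio of 0.90 (0.55 to 1.26). B cells had Bhlhe40 in 5.95% and 6.58%. The ratio was 0.37 in B cells and -0.72 (-1.58 to 0.11) in CD8 T cells. Tbx21, the T-box factor T-bet of NK maturation, had 89 and 128 counts (0.57, 0.17 to 0.98), whereas Eomes had 271 and 251 (-0.06, -0.31 to 0.19). Id2 (0.03), Zeb2 (0.14), Irf8 (-0.19) and Prdm1 (-0.32) had intervals that spanned 0.

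Genes of immature NK cells had a median ratio below 0 and genes of mature NK cells a median above 0. In the immature list 1 of 8 was past the limit, 5 were below 0 and the median was -0.38, beside 0.634% of all genes at or below -1 and a median of 0.00. The 1 was Emb, the adhesion protein embigin, with 56 counts in 31 air cells and 26 in 15 hyperoxia cells (-1.06, -1.79 to -0.36). It was at -0.92 without the cells that carried other markers and at -0.56 in cells with at least 3 genes of the rule. Ctla2a, a protease inhibitor, had 210 and 123 (-0.72, -1.06 to -0.39), and Cd7 had 146 and 95 (-0.57, -0.96 to -0.19). Thy1 had 77 and 50 (-0.57, -1.12 to -0.04), but Xcl1 (0.54) and Cd27 (0.31) in the same list were above 0. In the mature list 0 of 12 were past the limit, 8 were above 0 and the median was 0.23. Itgam (CD11b) had 166 and 199 (0.31, 0.01 to 0.62) and Ly6c2 had 210 and 296 (0.54, 0.28 to 0.81), of which 38 were in 1 cell, whereas Klrg1 had 69 and 58 (-0.20, -0.73 to 0.32). Counted by cells, Cd27 was in 25 of 175 and 33 of 173 NK cells. Itgam was in 96 and 102, and Klrg1 in 48 and 41. Cd27 without Itgam was in 10 air cells (5.71%) and 19 hyperoxia cells (11.0%), and Itgam without Cd27 in 81 and 88. Each pair of shares had overlapping intervals.

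**Figure D4:**
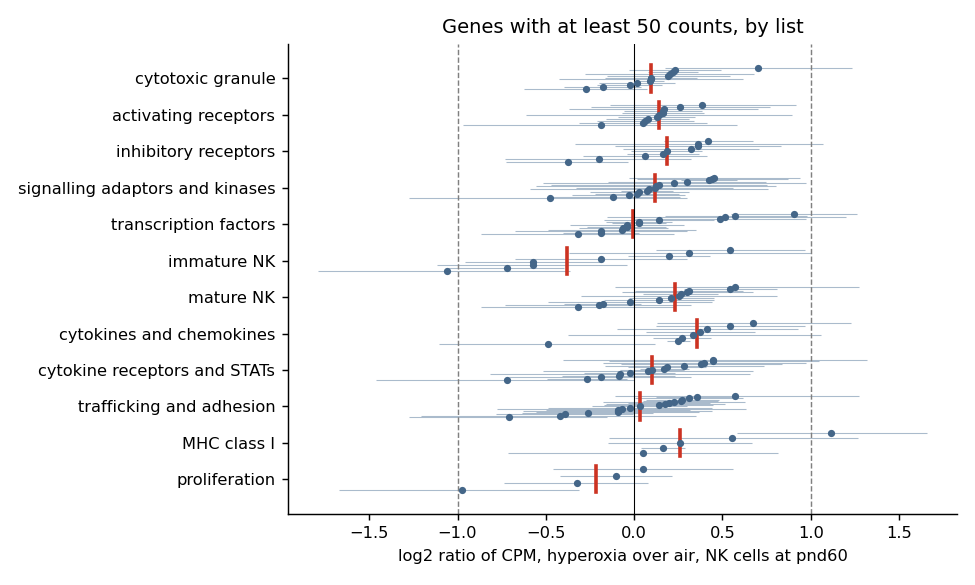
Log2 ratio of CPM in NK cells at pnd60, hyperoxia over air (x axis), for genes with at least 50 counts in 12 lists (y axis); points are genes, thin bars are 95% counting intervals, red bars are list medians and dashed lines mark 2-fold. Emb at -1.06 and H2-Q4 at 1.11 are the 2 points past the dashed lines.

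Receptors for cytokines and for positioning were close to 0, with 0 of 15 and 0 of 19 past the limit (0.906% and 0.634% of all genes) and medians of 0.10 and 0.03. Il2rb, the receptor chain shared by IL-2 and IL-15, had 820 and 892 counts (0.17, 0.03 to 0.31), and Il18r1 had 260 and 247 (-0.02). Ifngr1 had 365 and 293 (-0.27, -0.49 to -0.04). Among integrins, Itgal (LFA-1) had 280 and 346 (0.35, 0.12 to 0.59) and Itga4 had 365 and 426 (0.27, 0.07 to 0.48). Cxcr4, which retains cells in marrow, had 76 counts in 49 cells and 45 in 29 (-0.71, -1.27 to -0.16), a value equal to that of B cells (-0.71) and beside -0.39 in CD8 T cells. Without the cells that carried other markers it was -0.55, with an interval that spanned 0.

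**Figure D5:**
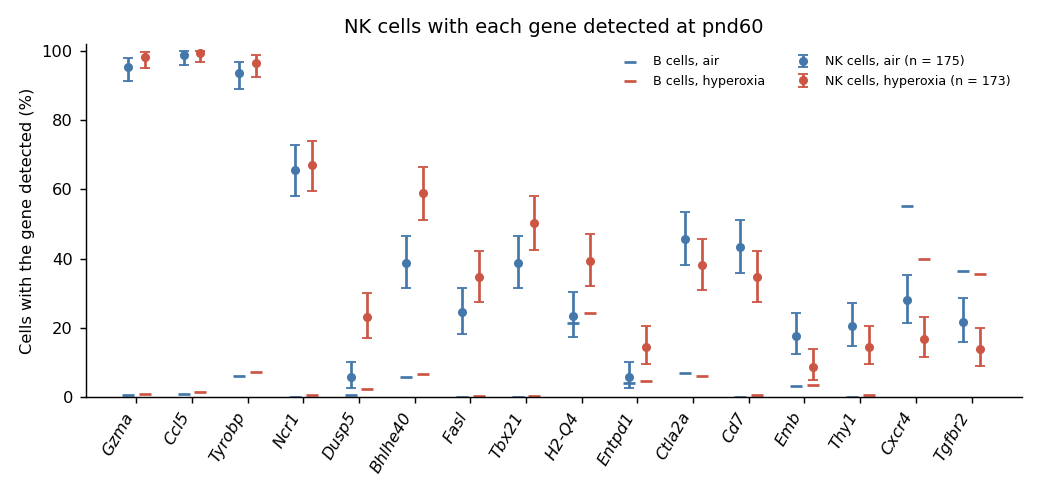
Percentage of NK cells with a gene detected at pnd60 (y axis) for 16 genes (x axis) in the air (blue, n = 175 cells) and hyperoxia (red, n = 173 cells) libraries; points are shares, bars are 95% Clopper-Pearson intervals and dashes are the share in B cells of the same library. Of the genes shown, intervals do not overlap for Dusp5 (5.71 and 23.1%), Bhlhe40 (38.9 and 59.0%) and H2-Q4 (23.4 and 39.3%), and in air the H2-Q4 share of NK cells was near the 21.5% of B cells.

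The study examined cellular senescence, and genes of that process were compared in NK cells. Of 9 p53 and senescence genes compared, 0 were past the limit (0.906% and 0.634% of all genes), with a median of 0.09. Mdm2, a p53 target, had 45 and 41 counts (-0.08, -0.73 to 0.56), Ccng1 had 27 and 30 (0.20) and Bax 38 and 39 (0.09). Cdkn1a (p21), the cell cycle inhibitor that p53 induces, had 7 and 2 counts in NK cells, below the minimum for a ratio. Of 11 antioxidant genes 0 were past it, with a median of -0.12, and Cat, catalase, had 48 and 30 (-0.63, -1.34 to 0.06). Of 4 proliferation genes 0 were past it, with a median of -0.21. Stmn1, a microtubule regulator, had 59 and 29 (-0.98, -1.67 to -0.31), and was at -1.09 without the cells that carried other markers. Mki67 or Top2a was detected in 14 air NK cells (8.0%, 4.44 to 13.1%) and 6 hyperoxia NK cells (3.47%, 1.28 to 7.40%), with overlapping intervals.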

How the data were processed

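Cells of mouse lung were profiled by the authors with the 10x Genomics system, and the deposited values are UMI counts per gene and barcode, from Cell Ranger (3.1.0 in the matrix headers) on mm10, with Seurat 3.2.1 also named in the submitters' processing notes. Here filtered cells had 701 to 7999 genes and under 5% mitochondrial counts, over the 2 mitochondrial features in the tables. Counts were summed over the NK cells of a library and divided by their total. With 1 library per condition no test was made. Shares carry Clopper-Pearson intervals, CPM Poisson intervals and ratios binomial intervals. Genes with at least 50 counts over both pnd60 libraries were compared, and a log2 ratio past 1 in size was the limit. CD8 T cells had a CD3 chain and Cd8a or Cd8b1, and B cells had Cd79a.

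The genes named were those of the rule, markers, list genes with at least 50 counts and the 10 highest and 10 lowest ratios. Genes outside that rule (Rn7sk, Ftl1 and the CD3-positive cells' genes) were chosen after their values were seen. The members, the 32 gene lists and the comparisons were chosen with earlier results of these data known. Lists without a ratio above include group 1 innate lymphoid (2 genes compared, median -0.27), interferon response (4, 0.17) and immediate early (11, -0.11). Others are survival (8, -0.13), glycolysis (10, -0.06) and MHC class I (5, 0.26, with H2-Q4 past the limit). The dendritic list had 1 gene compared (0.02) without the cells that carried other markers. Filtered cells held 16648251 and 13576172 counts at pnd7 and 14744081 and 16533775 at pnd60, air first. The software was scanpy 1.11.5 (Scrublet), scipy 1.17.1, numpy 2.4.6 and pandas 2.3.3 under Python 3.11.15, and the ratio code was tested on simulated data.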

Additional observations from a re-analysis of the deposited data

How the results depend on the processing

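No paired analysis was possible because the labels give a single library for every exposure and age. Of 2552 values recomputed for 233 results under other settings, 2404 stayed within their counting interval. Another 115 were counted as moved beyond it and 33 as changed in sign. The tally left out the NK shares, the numbers of genes past the limit and the summed ratios of some lists. Those lists were cytotoxic granule, activating receptors, inhibitory receptors, immature NK, mature NK, and cytokines and chemokines. Their moved values follow in the next paragraph, for numbers of genes when beyond 1.5 times. A change in sign was counted only where the ratio of all members was at least 1 in size. Smaller ratios that changed sign were counted as within or moved. Gzma was counted as moved, although its sign turned with at least 3 genes of the rule. Dusp5 ranged from 2.29 to 3.09 and Bhlhe40 from 0.87 to 1.03, above the 2-fold limit only in cells thinned to 1000 counts. The settings without the CD3 exclusion, on 2 or more of Ncr1, Eomes, Klrd1, Klrk1 and Klrc1, and on members with at least 20 counts of another cell type were chosen after seeing the data.

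The NK share in air at pnd7 was 0.0433% with at least 3 genes of the rule and 0.693% without the exclusion of CD3, and 0.0867% without members that had markers of another class or at least 20 such counts. In hyperoxia at pnd7 it was 0.482% without the exclusion of CD3. Of Ptprc cells it was 7.09% in air and 6.37% in hyperoxia at pnd60, and the shares of filtered cells were 3.43% and 3.05% when members with markers of another class were left out. Genes past the limit upwards numbered 17 without members that had markers of another class, 11 without members with at least 20 such counts, 151 at a minimum of 20 counts, 9 at a minimum of 100 and 11 after thinning. Downwards they numbered 12 with at least 3 genes of the rule, 13 when Klra8 and Klra4 were left out of it, 13 and 11 under the 2 exclusions of members, 172 and 1 at minima of 20 and 100, and 4 after thinning. Which genes were past the limit also changed: of the 21 lower genes 0 were among the 4 after thinning, 2 among the 13 without members that had markers of another class, and 7 among the 23 without Scrublet doublets, and of the 30 higher genes 6 were among the 11 after thinning and 20 among the 26 without Scrublet doublets. The summed cytotoxic granule ratio, which includes Gzma and Prf1 of the rule, was 0.085 for all members and 0.010 with at least 3 genes. That of cytokines and chemokines, 0.26, was 0.18 with at least 3 genes and 0.20 without Scrublet doublets.

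The values counted as changed in sign were as follows. Except where the construction (removed cells) shows it, the cause was not tested. Leaving out members with at least 20 counts of another type gave the red blood cell list -1.42, Hba-a1 -1.98, Hba-a2 -3.35, Hbb-bs -0.60, Hbb-bt -2.48, Plac8 -0.044, Alcam 0.91, Apoe -0.48, Lpcat1 0.11, Lpl 0.69, Scd1 1.33, Sec14l3 0.11 and Sftpd 2.69. Leaving out members with markers of another class gave Alcam 1.11, Apoe -0.17, Lpcat1 0.11, Lpl 0.11, Scd1 0.85, Sec14l3 0.11, Sftpd 2.43 and Thbd -0.89. At least 3 genes of the rule gave Chil1 0.17, Chil3 0.50, Lpl 1.23 and Scd1 0.68. The same setting took Gzma from 0.09 to -0.013, which was counted as moved. The rule without Klra8 and Klra4 gave Chil1 0.27, Chil3 0.59, Lpl 1.32 and Scd1 0.77. Requiring Cd5, Cd6, Cd4 and Cd8b1 at 0 gave Apoe -0.044. Removing Scrublet doublets gave Scd1 1.41 and Sftpd 2.58, and thinning gave Scd1 0.56. Depth limits genes near the minimum: Emb, with 56 and 26 counts, had an interval from -1.79 to -0.36.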
